A study of Mus musculus with 18 samples.

Results

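The platelet-derived growth factor (PDGF) system was followed through 2 receptor genes, Pdgfra and Pdgfrb, and 4 ligand genes, Pdgfa, Pdgfb, Pdgfc and Pdgfd. They were chosen by symbol, and all 6 were found, each on its own row, among the 23238 gene symbols counted in 18 mouse RNA libraries. The cells were sorted by flow cytometry from the small intestine of adult C57BL/6J mice. Stromal cells (IntSCs) and lacteal endothelium (LECs), which lines the lymph vessels inside the villi, were compared between 2 genotypes. The WT groups carried PDGFRb+-CreERT2-Tomato+, a tamoxifen-inducible Cre driven by the Pdgfrb promoter together with a Tomato reporter, and the KO groups carried the same alleles plus Lats1f/f and Lats2 f/f, so that Cre and reporter were shared by all groups. There were 6 WT IntSC, 5 KO IntSC, 4 WT LEC and 3 KO LEC libraries. Cre acts where Pdgfrb is active, so the Hippo pathway kinases LATS1 and LATS2, which hold back YAP and TAZ, were targeted in the stromal cells and not, by design, in the LECs. IntSCs were sorted on the reporter, so that a difference in Pdgfrb between IntSCs and LECs was built into the sort and is given below as a description. IntSCs so defined hold fibroblasts, smooth muscle cells and pericytes together, and a bulk library cannot tell fewer cells of a type from less RNA per cell.

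PDGFs are secreted dimers that bring together and activate receptor tyrosine kinases at the cell surface. The A and B chains are cut into active form inside the cell by furin-like proteases, while the C and D chains are released latent and activated outside it. PDGFRα binds the A, B and C chains and PDGFRβ binds the B and D chains most strongly. In many tissues endothelial cells secrete PDGF-B, which recruits PDGFRβ+ pericytes to the vessel wall. In the gut, epithelial PDGF-A acts on PDGFRα+ mesenchyme during villus formation.

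Total counts ranged from 5361250 to 10549233 per library, so that 3 reads, the floor used here for detection, corresponded to between 0.281 and 0.632 CPM, reads scaled to the library size. All CPM values below also use TMM normalisation factors. Rn45s, which encodes ribosomal RNA, accounted for 7.02% to 24.4% of reads. The targeted genes did not show the deletion: Lats1 was 17.5 ± 10.3 CPM in WT IntSCs (SD, n = 6) and 16.0 ± 3.28 CPM in KO IntSCs (SD, n = 5), and Lats2 was 72.8 ± 23.7 and 114 ± 20.3 CPM. Reads came from the 3′ end of transcripts, where a message without its floxed exons can still be counted, so these values did not check the labels, and KO below means the libraries labelled so. Genes that mark the cell types, though not used for the sort, differed between the sorted populations. Pdpn encodes podoplanin, which the paper lists among its flow cytometry antibodies. It averaged 239 CPM in WT IntSCs, 329 CPM in KO IntSCs, 306 CPM in WT LECs and 180 CPM in KO LECs. Prox1, the transcription factor that defines LECs, averaged 52.4 CPM in WT LECs and 67.7 CPM in KO LECs against 0.0793 CPM in WT IntSCs and 0.0804 CPM in KO IntSCs. The summed fibroblast markers (Col1a1, Col1a2, Col3a1, Col6a1, Dcn and Lum) were 6433 to 15004 CPM in IntSCs. They were 567 to 1953 CPM in WT LECs, with WT LEC 1 the highest and standing apart from the other WT LECs, and 283 to 526 CPM in KO LECs.

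**Figure D1:**
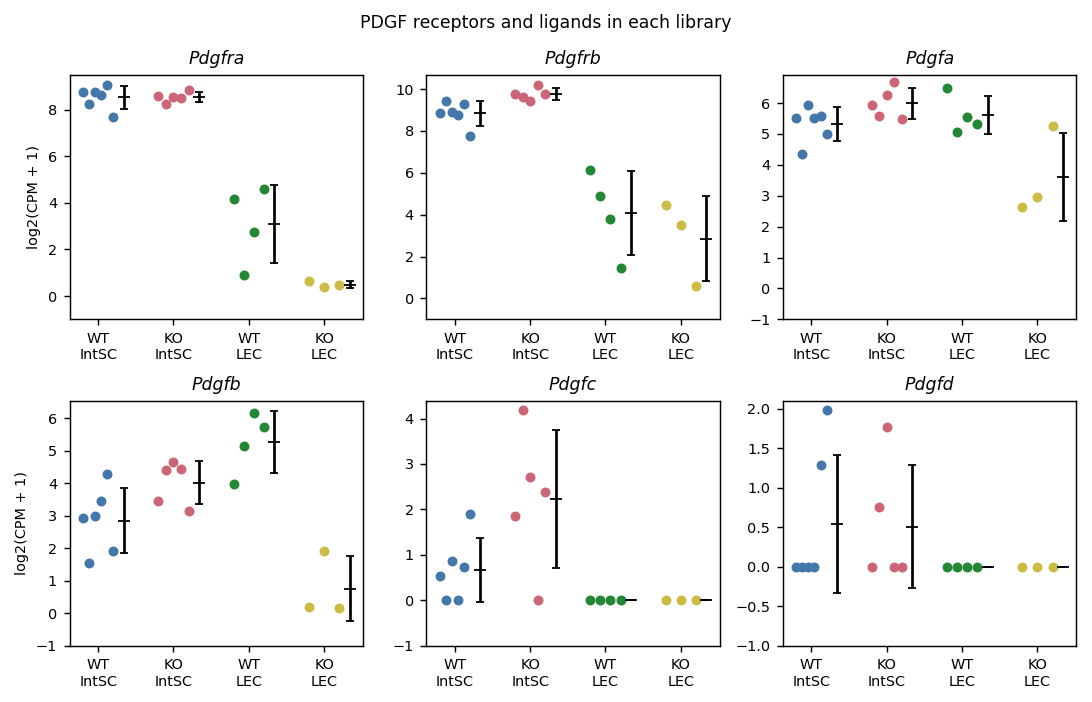
Expression of the 6 genes as log2(CPM + 1) in each of the 18 libraries, by group; each point is a library, and the bar beside each group is its mean ± SD on that scale. Both receptors sit high in all 11 IntSC libraries and low in all 7 LEC libraries, Pdgfb is lowest in the KO LECs, and Pdgfc and Pdgfd are at 0 in every LEC library.

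Pdgfra, the receptor for the A, B and C chains and a marker of villus fibroblasts, was a stromal gene in both genotypes with no difference between them passing the test. In WT IntSCs it ranged from 207 to 536 CPM, with a median of 410 CPM. In the 5 KO IntSC libraries it was 380, 297, 372, 364 and 457 CPM, all within the WT range. The log2 fold change of KO over WT was −0.03 ± 0.20 (SE), with adjusted p = 0.987 in the edgeR quasi-likelihood test, and 2 SE to either side reached from −0.44 to 0.38.

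Pdgfra was near absent from LECs, and the WT LEC libraries disagreed about how near. They held 17.1, 0.864, 5.71 and 23.3 CPM, from 180, 7, 61 and 233 reads. The KO LEC libraries held 0.558, 0.310 and 0.372 CPM, which was 4, 3 and 3 reads. Every LEC library lay below every IntSC library, and every KO LEC library lay below every WT LEC library. WT LECs were lower than WT IntSCs by a log2 fold change of −5.01 ± 0.69 (SE; adjusted p = 1.06e-04), a 32.2-fold difference. Pdgfra entered that fit only through the WT IntSC libraries, so its p is no support for a difference. KO LECs were lower than KO IntSCs by −9.80 ± 0.36 (SE; adjusted p = 6.41e-07). Pdgfra entered this fit only through the KO IntSC libraries. This p, the smallest of all 12758 genes in that comparison, is therefore no support for a difference. With 10 KO LEC reads in all, the pooled ratio of KO IntSCs to KO LECs was 933, with a 95% exact interval of 507 to 1946 that covers counting error only. Between the LEC groups the log2 fold change of KO over WT was −4.71 ± 2.29 (SE), and it did not pass the test (adjusted p = 0.678). Pdgfra entered this fit only through the WT LEC libraries, and without WT LEC 1, WT LEC 3 or WT LEC 4 it was too low for the fit. The difference passed when all 4 groups shared a single fit (adjusted p = 0.00146). Over the 13 alternatives that could be fitted, the adjusted p ran from 0.00146 to 0.9996.

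Pdgfrb, the receptor for the B and D chains and a marker of pericytes and other mural and stromal cells, had its highest levels in KO IntSCs, but the difference from WT IntSCs missed the threshold. In WT IntSCs it ranged from 215 to 680 CPM, with a median of 473 CPM. In the KO IntSC libraries it was 868, 775, 693, 1187 and 866 CPM. All 5 KO libraries lay above all 6 WT libraries, a separation in this direction that 1.63% of the genes tested showed. The log2 fold change was 0.86 ± 0.23 (SE), a ratio of 1.82, with adjusted p = 0.0613, just outside the threshold of 0.05. The value passed with DESeq2 (0.0118), with limma-voom (0.0359), with no filter beyond 1 read (0.0340) and without WT IntSC 2 (0.0438), the library with the highest WT level. Over the 20 alternatives the log2 fold change stayed between 0.71 and 0.98, and the adjusted p ran from 0.0118 to 0.9999. The Pdgfrb promoter drove the Cre in both genotypes. The paper describes the reporter as a separate Rosa26-tdTomato allele, which Cre turns on.

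Cell type markers are given beside the stromal Pdgfrb values. The fibroblast sum was 10201 to 15004 CPM in WT IntSCs and 6433 to 10911 CPM in KO IntSCs, and 0 of its 6 genes had a log2 fold change above 0. Of these, 1, Col3a1, a fibrillar collagen, fell (−0.92 ± 0.23, SE; adjusted p = 0.0438). The sum of 5 markers of subepithelial fibroblasts (Foxl1, Sox6, Bmp7, Bmp5 and F3) was 107 to 247 CPM in WT and 60.6 to 94.5 CPM in KO libraries, without overlap, and 0 of the 5 genes passed. Over all genes tested, 1.2% were lower in KO without overlap and 1.47% passed. Of the 5, 2 had a log2 fold change above 0. Foxl1 averaged 1.34 CPM in WT and 3.07 CPM in KO IntSCs, and F3 averaged 3.48 and 8.06 CPM. The pericyte sum of 7 genes was 325 to 591 CPM in WT and 318 to 643 CPM in KO libraries, with 1 of the 7 genes, Kcnj8, called lower. The smooth muscle sum of 6 genes was 1037 to 1801 CPM in WT and 1252 to 2336 CPM in KO libraries, and 0 of the 6 genes passed. The part of these markers in the Pdgfrb values was not tested.

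In LECs Pdgfrb was low and uneven. The WT LEC libraries held 69.2, 29.1, 13.0 and 1.70 CPM and the KO LEC libraries 20.8, 10.5 and 0.496 CPM, so that the genotypes overlapped. The log2 fold change of KO over WT LECs was −1.35 ± 1.41 (SE; adjusted p = 0.9999), and it came to −0.42 without WT LEC 1 and to −2.27 without KO LEC 1. IntSCs of the same genotype had been sorted on the reporter. Against them the log2 fold change was −4.09 ± 0.74 (SE) in WT and −6.38 ± 0.92 (SE) in KO cells. The first came to −5.05 without WT LEC 1 and the second to −7.29 without KO LEC 1.

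Each LEC library was set against the stromal libraries of its genotype. Relative to the mean of WT IntSCs, WT LEC 1 held 4.47% of the Pdgfra, 14.3% of the Pdgfrb and 15.5% of the fibroblast sum. WT LEC 2 held 0.225% of the Pdgfra, 6.02% of the Pdgfrb and 4.71% of the fibroblast sum. WT LEC 3 held 1.49%, 2.69% and 4.97% in the same order. WT LEC 4 had the reverse pattern, with 6.08% of the Pdgfra, 0.351% of the Pdgfrb and 4.49% of the fibroblast sum. In the KO LEC libraries Pdgfra stood at 0.149%, 0.0828% and 0.0996% of the KO IntSC mean, while the fibroblast sum stood at 3.13%, 4.18% and 5.83%. Fibroblast markers were thus present in all 7 LEC libraries. The subepithelial fibroblast markers summed to 3.90, 3.70, 13.6 and 20.6 CPM in the WT LEC libraries and to 0.419, 4.34 and 0 CPM in the KO LEC libraries. The WT LEC sums were mostly Bmp7, which averaged 9.90 CPM there, while Foxl1, Sox6, Bmp5 and F3 each averaged at most 0.395 CPM. WT LEC 4 had the highest sum, as for Pdgfra, but WT LEC 1, with 17.1 CPM of Pdgfra, had a sum of 3.90 CPM. The pericyte sum stood at 28.5% to 49.9% of the IntSC mean in WT LECs and at 30.2% to 36.9% in KO LECs. Its 7 genes did not move together. Against IntSCs of the same genotype, 1 was called higher and 4 lower in WT LECs, and 1 higher and 3 lower in KO LECs. Over all genes tested, 22.6% passed in the WT comparison and 25.9% in the KO comparison. Rgs5 averaged 105 CPM in WT IntSCs, 70.1 CPM in KO IntSCs, 7.94 CPM in WT LECs and 0.140 CPM in KO LECs. In the same order, Kcnj8 averaged 36.0, 13.5, 105 and 80.0 CPM and Mcam 43.7, 104, 45.5 and 50.7 CPM. The part of these markers in the receptor values was not tested.

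**Figure D2:**
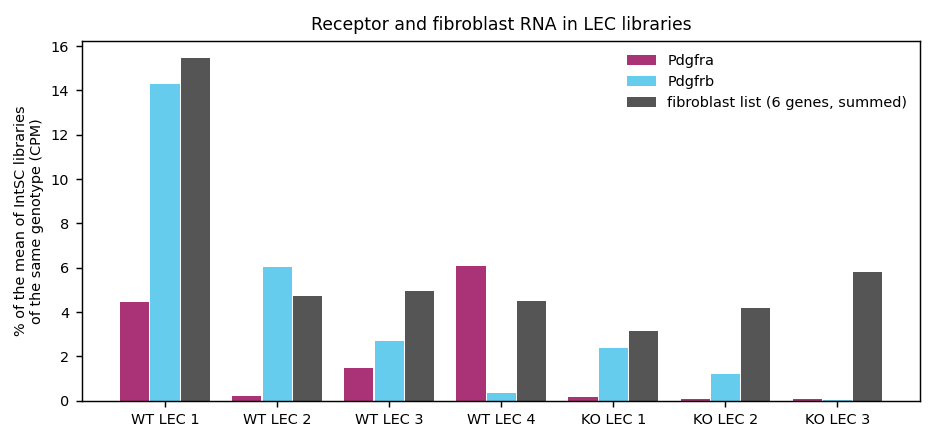
Pdgfra, Pdgfrb and the sum of 6 fibroblast markers in each LEC library, as a percentage of the mean CPM of the IntSC libraries of the same genotype; each bar is 1 library and has no error bar. The receptors follow different orders among the WT LEC libraries, and in the KO LEC libraries Pdgfra stays at or below 0.149% while the fibroblast sum is 3.13% or more.

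The receptor balance was described by the share of Pdgfra among the reads of both receptors in a library, which compares libraries and not the absolute levels of the genes. In WT IntSCs the share ranged from 30.6% to 49.1%, with a median of 47.4%, and 5 of the 6 libraries lay at 46.1% or above. In KO IntSCs it was 30.4%, 27.7%, 34.9%, 23.5% and 34.6%. WT IntSC 2, at 30.6%, lay inside the KO range, so the groups overlapped. In WT LECs the share was 19.8%, 2.88%, 30.5% and 93.2%, on 200 to 907 receptor reads, and WT LEC 4 stood above every other library, with a 95% Wilson interval of 89.4% to 95.7%. In KO LECs it was 2.61%, 2.86% and 42.9%, the last on 7 reads with an interval of 15.8% to 75.0%. Such intervals cover counting error only, since PCR copies are not independent molecules.

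**Figure D3:**
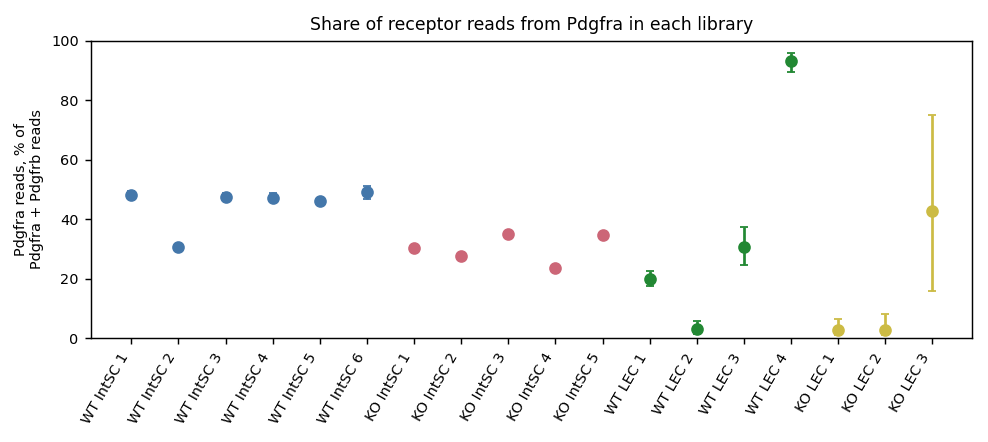
Pdgfra reads as a percentage of Pdgfra plus Pdgfrb reads in each of the 18 libraries, coloured by group; bars are 95% Wilson intervals for counting error. The KO IntSC libraries sit between 23.5% and 34.9% and 5 of the 6 WT IntSC libraries at 46.1% or above, while the LEC libraries scatter from 2.61% to 93.2%.

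Of the ligands, Pdgfa, which acts through PDGFRα, was present in both cell types at WT. It ranged from 19.4 to 59.9 CPM in WT IntSCs, with a median of 44.8 CPM, and was 88.4, 32.6, 45.9 and 38.8 CPM in WT LECs. The WT LEC over WT IntSC log2 fold change was 0.33 ± 0.40 (SE; adjusted p = 0.634), and it came to −0.06 without WT LEC 1, the highest library. KO IntSCs held 59.9, 47.0, 76.2, 103 and 43.6 CPM, overlapping the WT range, with a log2 fold change of 0.69 ± 0.30 (SE; adjusted p = 0.429). KO LECs held 5.17, 6.81 and 37.0 CPM. KO LEC 1 and KO LEC 2 lay below every WT LEC library and KO LEC 3 among them, and the log2 fold change of KO over WT LECs was −1.57 ± 0.84 (SE; adjusted p = 0.756). All 3 KO LEC libraries were below all KO IntSC libraries, by −2.02 ± 0.69 (SE; adjusted p = 0.0537). Without KO LEC 3 that difference was −3.46 and passed (adjusted p = 0.00151), and over the 17 alternatives the adjusted p ran from 0.00151 to 0.122.

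Pdgfb, the B chain that endothelial cells use to attract pericytes, was higher in WT LECs than in WT IntSCs. The WT LEC libraries held 14.9, 34.7, 71.6 and 52.7 CPM, from 157 to 764 reads. WT IntSCs ranged from 1.89 to 18.6 CPM, with a median of 6.87 CPM. In all, 3 of the 4 WT LEC libraries were above every WT IntSC library, and WT LEC 1, the library with the most fibroblast RNA, was below the highest of them. The log2 fold change was 2.48 ± 0.66 (SE), 5.59-fold higher in LECs, with adjusted p = 0.0133. It was lost without WT LEC 3 (2.13, adjusted p = 0.0620), and over the 19 alternatives the adjusted p ran from 0.00242 to 0.0631. Beside the stromal Pdgfb values, the 7 summed LEC markers of the IntSC libraries were 201 to 417 CPM, against 8202 to 14337 CPM in LECs. Most of the stromal sum was Pdpn, which fibroblasts also express. Without it, a choice made after the values were seen, the other 6 markers summed to 13.2 to 87.8 CPM in IntSCs and 7905 to 14107 CPM in LECs. Platelet markers, which can bring Pdgfb into a sorted sample, summed to at most 11.03 CPM in any library. The 7 blood endothelial markers summed to 1249 to 2782 CPM in WT and 941 to 1434 CPM in KO IntSCs. Of these, Cd34, which fibroblasts also express, fell in KO IntSCs (−1.05 ± 0.20, SE; adjusted p = 0.00688), and the other 6 did not pass. The median log2 fold change of the 7 in KO over WT IntSCs was 0.96, and 5 of the 7 were above 0. Among these were Sox17 at 1.34, Rgcc at 1.09, Flt1 at 0.99 and Cldn5 at 0.96, beside 1.09 for Pdgfb. Plvap averaged 159 CPM in WT and 170 CPM in KO IntSCs. Esm1 went the other way, from 7.48 CPM in WT to 0.434 CPM in KO IntSCs. In LECs none of the 6 tested passed between genotypes, and 3 had a log2 fold change above 0. The sum of the 7 was 1073 to 1996 CPM in WT LECs and 1467 to 1648 CPM in KO LECs. Most of this sum was Cldn5, which averaged 1277.5 CPM in WT and 1294.1 CPM in KO LECs. In WT and KO IntSCs Cldn5 averaged 12.3 and 24.05 CPM. In WT and KO LECs, Plvap averaged 95.5 and 107 CPM, Cd34 157 and 157 CPM and Flt1 9.48 and 5.85 CPM. Sox17 averaged 6.16 CPM, Esm1 6.09 CPM and Rgcc 7.48 CPM in WT LECs, where each had a library at 0, and in KO LECs Sox17 and Esm1 had no read and Rgcc averaged 1.63 CPM. The part of these markers in the Pdgfb values was not tested.

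In KO LECs Pdgfb was at 0.140, 2.79 and 0.124 CPM, which was 1, 27 and 1 reads. All 3 libraries lay below all 4 WT LEC libraries, the lowest of which held 14.9 CPM. The log2 fold change of KO over WT was −5.30 ± 1.42 (SE), and with adjusted p = 0.280 it did not pass. Pdgfb entered this fit through the WT LEC libraries, where it was high. The pooled ratio of WT to KO LECs was 37.8, with a 95% exact interval of 26.2 to 56.6 for counting error only. The difference passed with DESeq2 (adjusted p = 5.14e-04) and with all 4 groups in a single fit (0.0136), and over the 16 alternatives the adjusted p ran from 5.14e-04 to 0.648. Every one of the 7 fits without a library stayed outside the threshold, with log2 fold changes from −8.15 to −4.78. In KO IntSCs Pdgfb was 10.1, 20.1, 24.0, 20.9 and 7.84 CPM, overlapping the WT range, with a log2 fold change of 1.09 ± 0.61 (SE; adjusted p = 0.615). KO LECs were below KO IntSCs in every library, by −3.99 ± 1.35 (SE; adjusted p = 0.0525). This passed without KO LEC 2, the KO LEC library with 27 reads (−6.81, adjusted p = 0.00454), and over the 17 alternatives the adjusted p ran from 7.02e-04 to 0.205. With or without KO LEC 2, Pdgfb entered the fit only through the KO IntSC libraries, so these p values are no support for a difference.

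The share of Pdgfb among the reads of the A and B chains was compared between libraries. Pdgfb made up 14.5% of the Pdgfa and Pdgfb reads of WT LEC 1 and 51.6%, 60.9% and 57.6% of those of the other WT LECs. In KO LECs it made up 2.63%, 29.0% and 0.334%, on 38, 93 and 299 reads. In IntSCs the share ran from 8.13% to 28.6% in WT and from 14.4% to 30.0% in KO libraries. WT LEC 1 thus lay within the stromal range, and the other WT LECs above it.

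**Figure D4:**
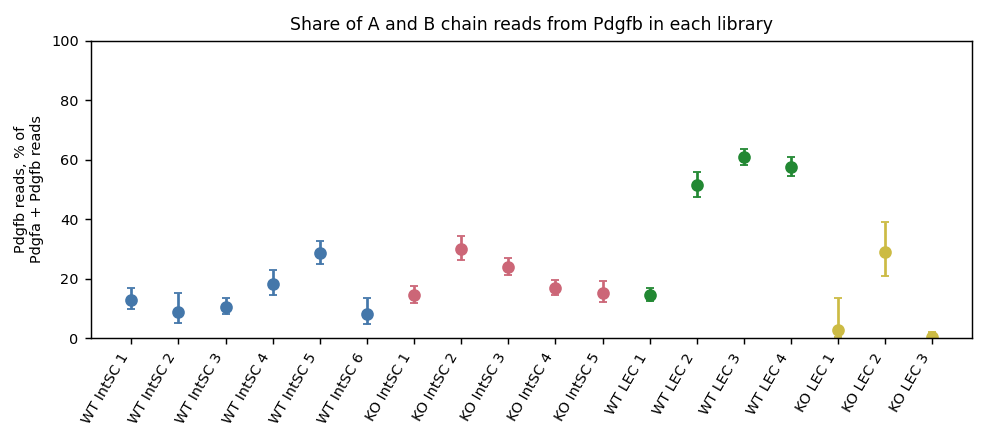
Pdgfb reads as a percentage of Pdgfa plus Pdgfb reads in each of the 18 libraries, coloured by group; bars are 95% Wilson intervals for counting error. Only WT LEC 2, WT LEC 3 and WT LEC 4 exceed 50%, while KO LEC 1 and KO LEC 3 are at 2.63% and 0.334%.

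Pdgfc, a latent ligand of PDGFRα that tissue plasminogen activator opens outside the cell, had reads in IntSC libraries and none in LEC libraries. The WT IntSC libraries held from 0 to 13 reads, at most 2.74 CPM. The KO IntSC libraries held 20, 125, 46, 0 and 32 reads, or 2.62, 17.1, 5.52, 0 and 4.25 CPM. In all, 3 of the 5 KO libraries lay above every WT library, KO IntSC 2 far above the rest, and KO IntSC 4 had no read. The log2 fold change of 2.90 ± 1.41 (SE) did not pass (adjusted p = 0.516). Against the floor of 3 reads per library, KO LECs were at least 16.1-fold lower than the KO IntSC mean of 5.90 CPM. Without KO IntSC 2 that mean was 3.10 CPM and the bound 8.44-fold. Pdgfc entered this fit only through the KO IntSC libraries, so its adjusted p of 0.0417, which ran from 0.00162 to 0.203 over 17 alternatives and missed the threshold in 9 of them, is no support for a difference. The difference between WT LECs and WT IntSCs did not pass the two-sided exact permutation test used for genes too low for the fit (p = 0.143, unadjusted, 1 of 4 such tests).

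Because YAP and TAZ act through TEAD factors, the 250 bases before the start sites were searched for the TEAD letters GGAATG on both strands (CATTCC on the other). Windows were given for 4 of the 6 genes, 5 windows in all, in the RefSeq promoter table of GRCm38.p6. The Pdgfc window, on the + strand at chr3:81036166-81036415, held 1 match, 137 bases before the start, which is also the first base of the gene. It is printed 5′ to 3′, with the match in capitals, as the only window of the 5 that held one. The windows of Pdgfra, Pdgfa and Pdgfd held none. The start sites that the table gives for those genes lie inside the gene, 929 bases from its first base for Pdgfra. Over the whole table, 12.6% of 32851 promoters of this length held a match. A match is a run of letters and not a measured binding site.
Pdgfc: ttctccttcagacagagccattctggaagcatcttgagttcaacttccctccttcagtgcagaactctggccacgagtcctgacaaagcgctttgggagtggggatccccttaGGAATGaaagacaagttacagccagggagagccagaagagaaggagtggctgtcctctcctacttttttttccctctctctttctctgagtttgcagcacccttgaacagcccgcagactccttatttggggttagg

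Pdgfd, a latent ligand of PDGFRβ, was at the edge of detection. It had reads in 2 of 6 WT IntSC libraries, 11 and 14, and in 2 of 5 KO IntSC libraries, 5 and 20. The highest level was 2.95 CPM. No LEC library had a read. The exact permutation tests gave p = 1 for KO against WT IntSCs, p = 0.667 for WT LECs against WT IntSCs and p = 0.714 for KO LECs against KO IntSCs, so a difference was not detectable at this depth.

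The 6 genes lie apart in the genome, at the following places in RefSeq GRCm38.p6, the assembly also called mm10. Pdgfra lies on chromosome 5 from 75151322 to 75198206 and Pdgfa on chromosome 5 from 138976014 to 139000792. Pdgfrb lies on chromosome 18 from 61045127 to 61085067, Pdgfb on chromosome 15 from 79995865 to 80024614, Pdgfc on chromosome 3 from 81036416 to 81214040 and Pdgfd on chromosome 9 from 6168363 to 6534284. The genes next to the receptors had low levels in IntSCs. Csf1r, a macrophage receptor gene 20504 bases beyond Pdgfrb, was at 10.9 ± 2.55 CPM in WT IntSCs (SD, n = 6) and 7.54 ± 1.74 CPM in KO IntSCs (SD, n = 5). Cdx1 on the other side had no read in WT IntSCs. Beside Pdgfra, Gsx2 had no read in any library and Kit averaged at most 2.44 CPM in a group. Beyond Pdgfa, Prkar1b averaged 22.3 CPM in WT IntSCs and 4.87 CPM in WT LECs and had no read in KO LECs. Beside Pdgfc, Glrb averaged 5.65 CPM in WT IntSCs and had no read in LECs, and Ddi1, which lies inside Pdgfd, had no read in any library. Cbx7, a Polycomb gene 24721 bases from Pdgfb, was at 92.6 CPM in WT IntSCs, 168 CPM in KO IntSCs, 65.2 CPM in WT LECs and 22.4 CPM in KO LECs on average.

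Across the comparisons the calls were counted against the share of all genes that passed. Members not counted below had too few reads for the fit. Between KO and WT IntSCs, 0 of the 5 members tested passed, where 1.47% of 12421 genes did. Between KO and WT LECs, 0 of 4 passed, where 0.0658% of 10639 genes did. Of the 4, Pdgfra and Pdgfb had every KO LEC library below every WT LEC library, as did 6.45% of genes. Between WT LECs and WT IntSCs, 3 of 4 passed, where 22.6% of 12203 genes did, and both receptors were below in every library, as were 11.4% of genes. Pdgfra is among the 3 and entered that fit only through the WT IntSC libraries. Between KO LECs and KO IntSCs, 3 of 5 passed, where 25.9% of 12758 genes did, and 4 of 5 were below in every library, as were 20.9% of genes. All 3, Pdgfra, Pdgfrb and Pdgfc, entered this fit only through the KO IntSC libraries, where they are high. These calls are no support for a difference. The Pdgfrb differences among these were built into the sort. Over all genes tested, the median log2 difference was −0.21 between KO LECs and KO IntSCs and −0.04 between WT LECs and WT IntSCs.

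**Figure D5:**
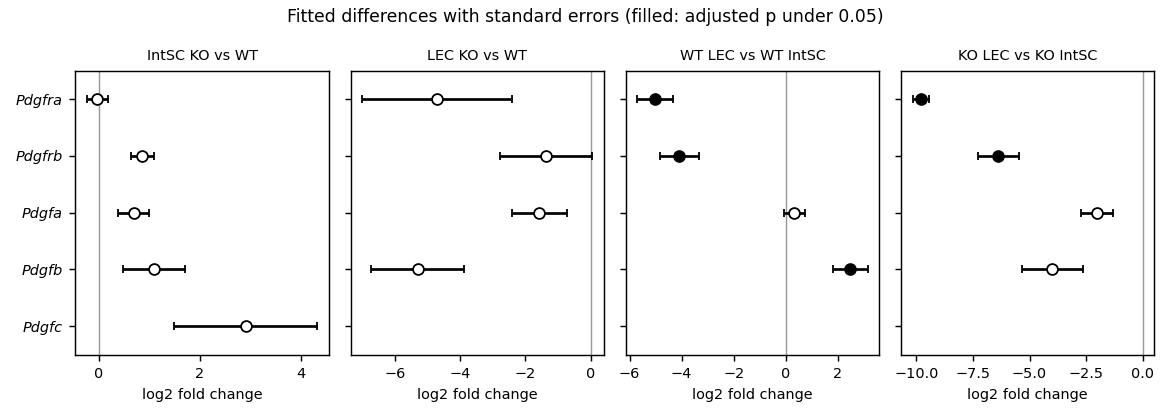
Fitted log2 fold changes of 5 of the genes in 4 comparisons, with standard errors; filled points passed at an adjusted p under 0.05, and each panel has its own horizontal scale. Genes too low for a fit are left out, as is Pdgfc between KO LECs and KO IntSCs, where the LEC libraries hold no read. The filled points are both receptors in the 2 cell type comparisons and Pdgfb between WT LECs and WT IntSCs. Pdgfra in both of these, and Pdgfrb between KO LECs and KO IntSCs, entered the fit only through the IntSC libraries.

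Whether the genotype difference itself differed between stromal and endothelial cells was tested as an interaction, the log2 fold change in IntSCs minus that in LECs. It passed for Pdgfra, at 4.77 ± 0.91 (SE; adjusted p = 0.00907), and for Pdgfb, at 6.46 ± 1.43 (SE; adjusted p = 0.0182). These were 2 of the 4 members for which it could be estimated, where 1.70% of 14015 genes passed and the median of all genes was 0.24. In both genes the difference came with KO LEC libraries at very few reads and IntSC libraries of the 2 genotypes that overlapped. Both genes entered this fit only through the other groups, so these p values are no support for a difference. The Pdgfra interaction did not pass with limma-voom (adjusted p = 0.268), and over the 26 alternatives its adjusted p ran from 3.78e-06 to 0.377. That of Pdgfb ran from 4.67e-06 to 0.284. Pdgfa was at 2.34 ± 0.76 (SE; adjusted p = 0.116), and it passed without KO LEC 3 (3.78, adjusted p = 0.00350), over a range of adjusted p from 0.00350 to 0.464. Pdgfrb was at 2.27 ± 1.14 (SE; adjusted p = 0.351). Pdgfc and Pdgfd, with no LEC reads, could not be estimated.

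Among the genes that handle PDGF ligands, Pcsk6 fell in KO IntSCs, and several differed between cell types. Of 10 genes for processing and binding, 1 fell and none rose in KO IntSCs. Counts in this and the next lists stand beside the share of all genes that passed. That share was 1.47% between KO and WT IntSCs and 0.0658% between KO and WT LECs. It was 22.6% between WT LECs and WT IntSCs, 25.9% between KO LECs and KO IntSCs and 1.70% for the interaction. Pcsk6, a furin-like protease, was at 266 ± 56.1 CPM (SD, n = 6) in WT IntSCs against 102 ± 30.1 CPM (SD, n = 5) in KO IntSCs. KO over WT, the log2 fold change of Pcsk6 was −1.37 ± 0.22 (SE; adjusted p = 0.00130). None of the 9 tested passed between KO and WT LECs. In WT LECs against WT IntSCs, 2 of 9 were higher and 2 lower. Plau, the urokinase that can activate PDGF-D, averaged 63.5 CPM in WT LECs and 2.30 CPM in WT IntSCs, a log2 fold change of 4.78 ± 1.23 (SE; adjusted p = 0.0118). Pcsk6 was higher by 1.62 ± 0.23 (SE). Sparc, a matrix protein that binds the B chain, was lower by −3.59 ± 0.36 (SE), and Pcsk5, another furin-like protease, by −3.05 ± 0.86 (SE). In KO LECs against KO IntSCs, 3 of 10 were higher (Pcsk6, Plau and Plaur) and 4 lower, among them Sparc (−5.06) and Pcsk5. Pcsk5 entered both fits only through the IntSC libraries, and Plau entered the WT fit only through the WT LEC libraries.

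The co-receptor list was lower in LECs than in IntSCs. Lrp1 is an endocytic receptor that associates with PDGFRβ, Nrp1 a co-receptor for several growth factors and Pdgfrl a receptor-like gene. In WT LECs against WT IntSCs 3 of 3 were called lower, where 22.6% of all genes passed. The log2 fold changes were −4.90 ± 0.44, −3.31 ± 0.70 and −6.37 ± 2.09 (SE) in that order. All 3 were also lower in KO LECs than in KO IntSCs, where 25.9% of all genes passed. Nrp1 and Pdgfrl entered both fits only through the IntSC libraries, so their calls are no support for a difference. Pdgfrl was at most 0.123 CPM in a WT LEC library and had no read in KO LECs. Lrp1 averaged 1995 CPM in WT IntSCs and 67.0 CPM in WT LECs. None of the 3 passed between KO and WT IntSCs, where their median log2 fold change was −0.31 against 0.0026 for all genes.

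Downstream, of 20 genes from adaptors to kinases, 1 fell in KO IntSCs and none rose, where 1.47% of all genes passed. Pik3r1, the regulatory subunit of PI3-kinase that docks on activated PDGF receptors, went from 603 ± 96.8 CPM (SD, n = 6) to 352 ± 75.4 CPM (SD, n = 5). KO over WT, the log2 fold change of Pik3r1 was −0.78 ± 0.18 (SE; adjusted p = 0.0318). None of 19 passed between KO and WT LECs. In WT LECs against WT IntSCs, Akt1, Mapk3 and Shc1 were higher and Pik3r1, Stat3 and Pik3r2 lower, with 14 of 20 not passing. Over all genes, 22.6% passed. In KO LECs against KO IntSCs, Shc1 was higher and Stat3, Plcg1 and Pik3r1 lower, with 16 of 20 not passing. Over all genes, 25.9% passed. Plcg1 had no read in KO LECs and entered the fit only through the KO IntSC libraries. Of 11 genes that dampen receptor signalling, none passed between KO and WT IntSCs. Dusp6, a phosphatase of ERK kinases, was higher in LECs than in IntSCs of both genotypes (1.31 and 1.47), and Spry2, an inhibitor of the Ras pathway, lower (−2.29 and −3.05). Spry2 entered both fits only through the IntSC libraries.

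The 10 early response genes, which many growth factors switch on and which also respond to cell isolation, gave a call in LECs and none in IntSCs. In KO IntSCs 10 of 10 had log2 fold changes above 0, with a median of 0.69, but none passed. In LECs 1 of 8 passed: Junb, an AP-1 subunit, averaged 1285 ± 248 CPM (SD, n = 4) in WT LECs against 406 ± 66.7 CPM (SD, n = 3) in KO LECs. KO over WT, the log2 fold change of Junb was −1.59 ± 0.24 (SE; adjusted p = 0.0259). The interaction passed for 3 of 10, Junb (2.14 ± 0.35), Fos (2.67 ± 0.45) and Ier3 (1.92 ± 0.38). In LECs against IntSCs, 4 of 8 were lower in WT cells and 7 of 10 in KO cells, and none was higher.

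The genes whose levels ran most like each member over the 18 libraries were listed among genes with a mean of at least 20 CPM, by Pearson's r of log2(CPM + 1). The libraries share a cell type, a genotype or both, and these correlations are descriptions. Pdgfra ran with Gli1, a Hedgehog target (r = 0.988), Arhgap9 (0.986) and Runx1t1 (0.985). Gli1 and Arhgap9 overlap at their ends, so their reads may not be separate. Gli1 averaged 325 CPM in WT IntSCs, 272 in KO IntSCs, 14.5 in WT LECs and 0.301 in KO LECs, an order of groups like that of Pdgfra. Pdgfrb ran with Fgfr2, a fibroblast growth factor receptor (0.973), Mxra8 (0.964) and Lbh (0.961), and Fgfr2 averaged 114, 175, 14.0 and 7.66 CPM in the same order of groups. Pdgfa ran with Il6st, the shared receptor subunit of the interleukin-6 family (0.880), and Ankrd17 (0.842). Pdgfb ran with Fbxo28 (0.910), Cyp4v3 (0.809) and Usp19 (0.779). Pdgfc ran with Epas1, Epn2 and Epb4.1 at 0.780 to 0.806, and Pdgfd with Cdk12, Cc2d2a and Ptrf at 0.628 to 0.676, both from few reads. Within the 11 IntSC libraries, with group means subtracted, Pdgfra ran with Ankrd16 (0.937), Foxk1 and Ubfd1, Pdgfrb with Rpl21 (0.949), Dot1l and Zdhhc8, and the receptors with each other at 0.611.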

How the data were processed

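RNA was profiled in 18 libraries with the QuantSeq 3′ protocol on an Illumina NextSeq 500. The authors deposited raw read counts per gene symbol, 1 table per library, not normalised. The submitters' processing notes list Bowtie2, edgeR and mm10, while the study's methods name TopHat and Cufflinks. The counting program and the annotation were not given in the sources used here. Groups came from the sample titles. The study counts mice as replicates and pooled independent experiments, which the labels do not assign to libraries, so experiment and group cannot be told apart. Rows of 35 repeated symbols were summed.

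Counts were tested in edgeR 4.0.16 (R 4.3.3) with TMM factors, filterByExpr, a robust quasi-likelihood fit of the groups compared and Benjamini-Hochberg adjustment over all genes, with a threshold of 0.05. The procedure was tested on simulated counts. Standard errors were derived from the F statistic. Genes too low for the fit were compared by exact permutation of log2(CPM + 1) in scipy 1.17.1. The members, gene lists and tests were chosen with earlier results of these data known. The genes named were the 6 members, Lats1 and Lats2, the 3 genes most correlated with each member, the genes next to them, and up to 3 called genes per direction from each pathway list. Some genes that this rule names are not reported here. Cbx7, Csf1r, Cdx1, Gsx2 and Kit are given among the neighbours, and single marker genes were picked out after their values were seen. Alternatives were DESeq2 1.42.0, limma-voom (limma 3.58.1), upper-quartile and RLE scaling, a filter of 1 read only, a filter at a mean of 10 counts, all 4 groups in a single fit, the replicate number as a block, removal of Rn45s, a pseudocount of 0.5 for the exact tests, and each library left out. Correlations of deviations between same-numbered libraries averaged 0.0197 for KO and WT IntSCs and −0.0042 for KO and WT LECs. Between WT LECs and WT IntSCs they averaged 0.0352, with all 4 pairs from 0.0226 to 0.0436, against −0.0070 for different numbers. Between KO LECs and KO IntSCs they averaged 0.0033, against −0.0009. The numbers were not taken to pair libraries in the main fits. Intervals and floors cover counting error only.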

Additional observations from a re-analysis of the deposited data

Results flagged for a closer look

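Of 16 sets of values (a gene in a group of 4 to 6 libraries), chance would give about 0.8 with a library far from the rest, and 2 were found. Pdgfc in WT IntSC 6 was at 2.74 CPM, with the next library at 0.813 CPM. Pdgfd in KO IntSC 3 was at 2.40 CPM, with the next at 0.685 CPM. Both rest on 20 reads or fewer. The genotype difference differed between IntSCs and LECs in the interaction test for Pdgfra, by 4.77 on the log2 scale, and for Pdgfb, by 6.46. In both genes the KO LEC libraries held 27 reads or fewer. The genes entered that fit only through the other groups, so the test is no support for a difference.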

How the results depend on the processing

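Of 429 values of the 6 genes under alternatives, 395 kept their direction and their side of the threshold, 14 lost a call, 16 gained one and 4 changed sign. The sign changed for Pdgfra in KO against WT IntSCs (−0.16 to 0.085 with each library left out, above 0 without WT IntSC 3, WT IntSC 5 or KO IntSC 2) and for Pdgfa in WT LECs against WT IntSCs (−0.062 to 0.47, below 0 without WT LEC 1). Neither was called. The cause of the other changes was not tested.

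Between KO and WT IntSCs, 183 genes were called, against 376 with DESeq2, 27 with all 4 groups in a single fit and 99 to 186 with each library left out. The members called went from 0 to 1, Pdgfrb, with DESeq2, limma-voom and no filter, and ran from 0 to 1 with each library left out. Between KO and WT LECs, 7 genes were called, against 309 with DESeq2, 12 with limma-voom, 32 with no filter, 20 with a mean count of at least 10, 371 with all 4 groups and 0 to 16 with each library left out. The members called went from 0 to 1 with DESeq2 and 2 with all 4 groups. At an unadjusted p under 0.05, edgeR had 837 genes in LECs. Between KO LECs and KO IntSCs, 5 members were called with DESeq2, limma-voom and all 4 groups. Of these, all but Pdgfa entered the fit only through the KO IntSC libraries. For the interaction, 238 genes were called, against 1054 with DESeq2, 143 with limma-voom and 161 to 461 with each library left out, and 1 member with limma-voom.

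Under a replicate block, the genes called were 3 in LECs, 1596 between WT LECs and WT IntSCs, 895 between KO LECs and KO IntSCs and 16 for the interaction, which then called 0 members. Pdgfb between WT LECs and WT IntSCs had an adjusted p of 0.0631 under the block. The KO LEC comparisons rest on 3 libraries, in which 3 reads correspond to 0.310 to 0.419 CPM.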
